A study of Mus musculus with 36 samples.

Results

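Mouse NIH3T3 fibroblasts that carry an Erbb2 transgene under tet-off control were compared after 2 h of tetracycline with untreated Erbb2-transfected NIH3T3 cells. The 2 h group was taken by its title label and held 4 of the series' 36 arrays, and the untreated group also held 4. Both groups carry the Erbb2 transfection, so the comparison is between transfected cells with and without the drug. The labels do not say whether both came from 1 line. No array of untransfected cells treated with tetracycline entered the comparison. Channel 2 of every array is labelled as RNA of the untreated transfected cells. The 2 h arrays therefore hold treated against untreated RNA, and the untreated arrays hold the untreated source in both channels. The design text speaks of a pair of different untreated lines as control, and the protocols speak of organs and of a pool from control animals, so what each ratio was taken against is not fully settled. The labels give neither the promoter that drives the transactivator, nor the number of clones, nor whether replicates were separate cultures, so the p-values measure only the spread between these arrays, which may be technical. The description covers the 9930 genes that the platform annotation names by a single symbol, of which 9296 could be tested at 2 h.

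Erbb2 belongs to the family of the epidermal growth factor receptor. It is a tyrosine kinase of the cell surface that feeds RAS-ERK and PI3K-AKT signalling, and its overexpression transforms NIH3T3 cells. In a tet-off system tetracycline keeps the transactivator from binding its promoter, so transcription of the transgene stops while messenger RNA and protein already made decay. Immediate early genes such as Egr1 respond to ERK signalling within minutes and make short-lived transcripts, whereas structural messenger RNAs such as those of collagens are generally stable. Erbb2 itself had 0 probes with its name among the 20355 on the array, so the loss of the transgene's RNA could not be checked in these data.

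Values are log2 ratios of channel 1 over channel 2, with each array centred on its median. The sign was turned on the Cy3 arrays (replicates 3 and 4), so a value above 0 means more RNA in channel 1, the named group. This direction is likely from the design text and the channel labels, but no file states which dye is the numerator, and every sign below turns if it was Cy3. Before turning, the 2 h arrays of opposite dye correlated negatively with each other (Spearman rho -0.227 to -0.189), and those of like dye positively (0.288 and 0.48). The untreated arrays correlated positively across the dyes before turning (0.378 and 0.467), and so oppose each other after it. Left unturned, 48 of 123 results for single genes change sign, Postn and the collagens among them, and 3 of these 48 pass the threshold, so the directions below rest on the turning. The columns of untreated replicates 1 and 2 hold the same data shifted by 0.771 (SD of the shift 0.0005066, 19772 probes). They were counted as 1 array, which left 3 distinct untreated arrays. Between 19426 and 19885 probes per 2 h array carried a value. The middle 50% of values spanned 0.384 to 0.489 on the 2 h arrays and 0.493, 0.699 and 0.7 on the untreated arrays. The tests used 1 spread per probe pooled over all groups, to which the only Cy5 untreated array added nothing. They can therefore understate the spread of the untreated arrays. Arrays have no read depth, and their number limits the precision.

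After 2 h of tetracycline more probes were higher than lower than in the untreated arrays, and the named genes at both ends of the range were of different kinds. Genes for periostin, decorin, type I and III collagens and the transcription factor Egr1 were lower, while glycolytic enzymes, cathepsin L, metallothionein 1, splicing factors and chaperones were among those that were higher. With limma and an adjusted p under 0.05, 553 of 18505 probes tested were called (2.99%), 423 of them higher (2.29%) and 130 lower (0.703%). Of the called probes 142 differed at least 2-fold, 104 upward and 38 downward. The called probes with 1 symbol named 384 genes, of which 300 were higher and 86 lower, with 2 counted on both sides by different probes, and 137 called probes had no single gene symbol. For 408 of the called probes all 2 h arrays had the sign of the difference and lay beyond all untreated arrays, 344 above and 64 below. Among all probes tested, whatever their sign, 6.71% had all 2 h arrays above the untreated arrays and 3.87% below. The count depends on the arrays fitted. It was 0 when only the 2 h and untreated arrays were fitted (2480 at an unadjusted p under 0.05 in limma). It was 342, 366 and 295 probes without 2 h replicate 2, 3 or 4. Without untreated replicate 1 it was 2592, but only Cy3 arrays are then left in that group. That omission was fitted with a common dye effect in place of 1 per group, so array and model changed together. This holds for every value below given without untreated replicate 1. With all arrays kept, a common dye effect gave 409 probes. Without centring, the median difference over all probes was -0.266 in place of -0.009, and the calls became 126 higher and 581 lower. That setting lowers every difference by about the same amount. The deposited median was 0.745 in the column of untreated replicate 1, whose values repeat replicate 2 plus a constant. It was -0.0615 and -0.032 in untreated replicates 3 and 4, and -0.079 to 0.083 at 2 h. Without centring, the untreated mean takes on part of that constant. The changes below are therefore relative to the median probe of each array.

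**Figure D1:**
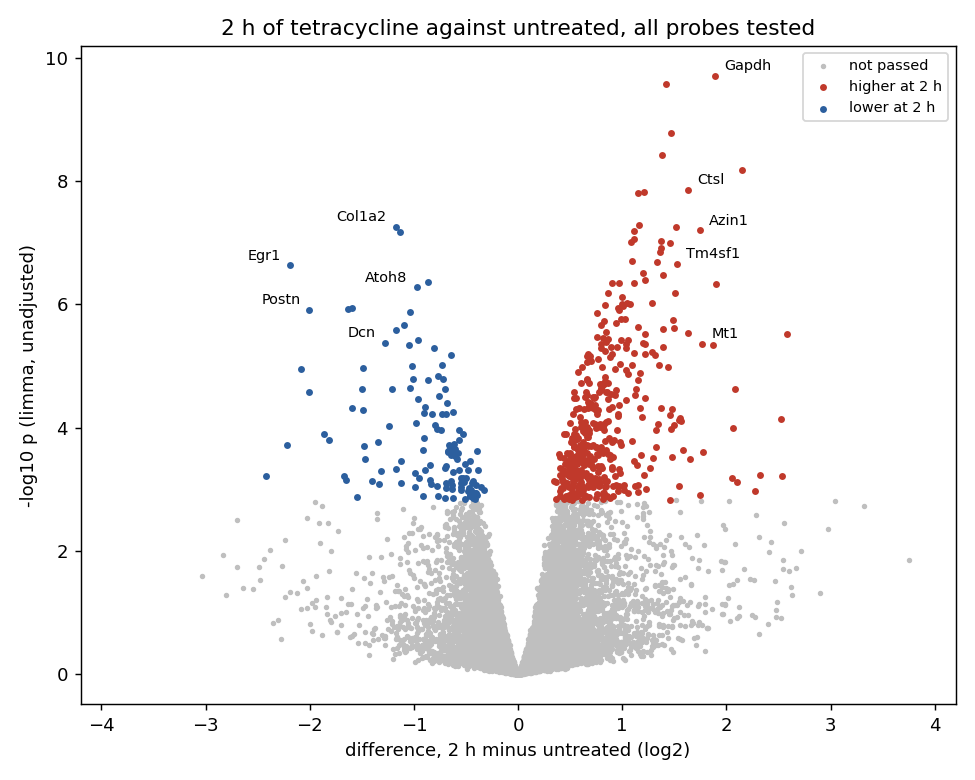
Difference between 2 h of tetracycline and untreated arrays (x axis, log2) against the unadjusted limma p-value (y axis, -log10) for each of 18505 probes. Red and blue points are the 423 higher and 130 lower probes at an adjusted p under 0.05, and Gapdh and Egr1 lie far out on either side.

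Where a gene had several probes, the one with the smallest p is given first and the other tested probes beside it. Among 172 called genes with more than 1 probe, 27 had 2 or more probes called and 98 had all their probes on the same side of 0. Counts over gene lists are from a second fit on gene means, in which 261 of 9296 genes were called (2.81%), 215 higher (2.31%) and 46 lower (0.495%). Over all genes tested the median difference was 0.02. Without centring that median is -0.24, and the medians of 9 lists that are above 0 here fall below 0: immediate early, ERBB, glycolysis, endoplasmic reticulum, oxidative phosphorylation, ribosomal, lysosome, TGF-beta and BMP, and endothelial and muscle genes. The interferon and acute phase median, -0.01, turns to 0.05 with scaled arrays. The lists together held 488 genes tested, of which 59 were higher and 10 lower. This total of 69 was 40 without 2 h replicate 4 and 107 without untreated replicate 1. Without centring all 10 of the lower genes kept their call, but only 14 of the 59 higher genes did, and the paragraphs below name those 14. Because that setting lowers every difference, it deepens falls and shrinks rises. The kept falls are therefore no separate support, and a lost rise reflects the constant as well as the gene.

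Genes of the extracellular matrix made up 8 of the 15 largest falls. Fibroblasts secrete fibrillar collagens, and decorin, dermatopontin and periostin bind or organise the fibrils, which lysyl oxidase crosslinks. Periostin (Postn) had the largest fall among matrix genes. Its 4 arrays at 2 h read -1.77, -2.11, -1.98 and -2.45, and the 3 untreated arrays -0.19, -0.22 and 0.31. Every 2 h array lay below every untreated array, by 1.55 or more. The difference was -2.0 (SE 0.24, adjusted p = 0.00049), which is 4.01-fold lower.

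Collagen genes fell with less spread between arrays. Col1a2, which encodes the alpha-2 chain of type I collagen, read -1.16, -1.14, -1.40 and -1.42 at 2 h against -0.24, -0.02 and 0.08 untreated. Its difference was -1.17 (SE 0.11, adjusted p = 8.81e-05), and its other 2 tested probes gave -1.13 and -0.86, both called. The Col1a2 gene mean differed by -0.81 (SE 0.16, adjusted p = 0.0122 by limma). That mean also takes in values of probes that were not tested alone, and it read -0.80 on untreated replicate 3. Col3a1, the type III collagen chain, read -1.01, -1.29, -1.19 and -1.28 against -0.25, 0.15 and 0.25. The groups did not overlap in either gene, and Col3a1 fell by 1.17 (SE 0.15, adjusted p = 0.000792). Col1a1, the alpha-1 chain of type I collagen, had a difference of -1.05 (SE 0.14, adjusted p = 0.00109) with its first probe and -0.51 with the other (adjusted p = 0.0205). All 3 genes kept their call whichever array was left out. Of 12 collagen genes tested, these 3 were lower and none was higher in the fit on gene means, and the list's median was -0.49. Other chains did not pass: the type V gene Col5a2 was at -0.49 (adjusted p = 0.0873), and the basement membrane gene Col4a1 was at 0.59 (adjusted p = 0.412).

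The fall reached proteins that bind or process the fibrils, but not the whole class. Decorin (Dcn), a small proteoglycan on collagen fibrils, read -1.43, -1.75, -0.93 and -1.09 at 2 h and -0.17, 0.19 and 0.04 untreated. It was lower by limma with an SE of 0.17 and an adjusted p of 0.00106, at 2.42-fold. Dermatopontin (Dpt) was at -0.62, -0.89, -0.87 and -0.85 against -0.24, 0.63 and 0.18, and its second probe gave -0.71 (adjusted p = 0.0475). Thrombospondin 2 (Thbs2), a matricellular glycoprotein, moved the other way, with a gene mean 0.77 higher (SE 0.14, adjusted p = 0.00777). Its call was lost without untreated replicate 1 (adjusted p = 0.0618) or without centring (0.0603). Among 13 glycoproteins and proteoglycans tested 3 were lower and 1 higher, with a median of -0.19. Fibronectin (Fn1) was at -0.16 (adjusted p = 0.505), and Sparc, a collagen-binding glycoprotein, at -0.35 (adjusted p = 0.113).

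Among matrix enzymes the protease Adamts1 and lysyl oxidase (Lox) were lower. Adamts1 read -1.74, -0.93, -1.82 and -1.87 at 2 h, so replicate 2 stood apart from the other 3, and -0.43, 0.21 and 0.68 untreated. The fall was 3.02-fold (log2 difference -1.59, SE 0.19, adjusted p = 0.000479). Lox was close to equal on the 2 h arrays at -1.11, -1.17, -1.11 and -1.20, against -0.42, 0.23 and 0.41. Both genes kept their call on every omission of an array, and the groups did not overlap. Lox's further probes gave -0.98 (called) and -0.08 (adjusted p = 0.932), so they disagree. Pcolce, which enhances procollagen processing, was higher by 0.49 (SE 0.08, adjusted p = 0.00397), but at 0.23 without centring (adjusted p = 0.181). Of 21 enzymes and inhibitors tested 2 were lower and 1 higher, with a median of -0.03, and the collagenase Mmp13 was at -0.78 (adjusted p = 0.117). In a culture, fewer cells of a kind and less RNA per cell cannot be told apart.

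Promoter sequences are shown for the 5 matrix genes among the largest falls that have an entry. Sequences are the 250 bases before the RefSeq gene start on GRCm38.p6, on the strand of the gene, and 8 of the 15 genes with the largest falls had an entry. Capitals mark a TATA box (TATAAA) or a CCAAT box (CCAAT), each searched on both strands. A second Postn entry, at chr3:54359017-54359266 on the + strand, held neither. The windows below are Postn at chr3:54360857-54361106 (+), Adamts1 at chr16:85803114-85803363 (-), Col1a2 at chr6:4505368-4505617 (+), Col3a1 at chr1:45311288-45311537 (+) and Dpt at chr1:164796413-164796662 (+).
Postn: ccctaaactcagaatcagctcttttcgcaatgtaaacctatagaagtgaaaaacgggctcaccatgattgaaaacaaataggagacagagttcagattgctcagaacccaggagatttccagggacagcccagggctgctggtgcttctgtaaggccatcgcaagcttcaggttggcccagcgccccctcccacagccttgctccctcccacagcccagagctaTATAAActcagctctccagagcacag
Adamts1: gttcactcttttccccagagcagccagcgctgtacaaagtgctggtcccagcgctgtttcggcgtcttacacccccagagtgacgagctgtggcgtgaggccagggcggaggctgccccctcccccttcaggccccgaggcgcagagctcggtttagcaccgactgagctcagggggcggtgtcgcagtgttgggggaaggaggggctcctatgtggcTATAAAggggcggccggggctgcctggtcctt
Col1a2: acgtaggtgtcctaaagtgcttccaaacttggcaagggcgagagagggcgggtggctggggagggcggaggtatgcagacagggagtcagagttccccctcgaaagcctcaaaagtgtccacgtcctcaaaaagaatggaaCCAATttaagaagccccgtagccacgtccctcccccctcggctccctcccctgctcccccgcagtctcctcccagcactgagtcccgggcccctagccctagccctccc
Col3a1: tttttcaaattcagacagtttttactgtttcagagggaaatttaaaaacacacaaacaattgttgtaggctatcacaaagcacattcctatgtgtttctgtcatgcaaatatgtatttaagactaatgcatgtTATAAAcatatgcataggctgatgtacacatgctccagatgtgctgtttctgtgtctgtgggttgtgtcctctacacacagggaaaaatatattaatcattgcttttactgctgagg
Dpt: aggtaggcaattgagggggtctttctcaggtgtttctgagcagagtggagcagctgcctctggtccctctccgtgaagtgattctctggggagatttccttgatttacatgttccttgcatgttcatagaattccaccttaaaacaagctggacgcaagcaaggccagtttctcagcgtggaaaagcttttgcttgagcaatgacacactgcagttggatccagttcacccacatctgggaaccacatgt
The TATA box began 26 bases before the start in Postn, 32 in Adamts1 and 117 in Col3a1, the Col1a2 window had a CCAAT box at 109, and the Dpt window held neither. A TATA box was present in 3 of the 8 genes with an entry, and in 14.3% of all 27025 genes with a window of this length. For the CCAAT box the counts were 2 of 8 and 37.5%. A match describes these letters only and is not a measured binding site.

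Egr1, a zinc finger transcription factor induced by ERK signalling, had the largest fall of any named gene whose groups did not overlap. Its arrays at 2 h read -2.74, -2.60, -2.51 and -2.54, and the untreated arrays -0.43, -0.56 and -0.22. The 4 values lie within 0.238 of each other, and the highest is 1.95 below the lowest untreated value. The difference of -2.19 (SE 0.22, adjusted p = 0.000178) is 4.56-fold. The mean of the 1 h arrays was -0.55, that at 4 h -3.25, at 12 h -2.56 and at 24 h -3.67, so the 2 h arrays are the first of the course at a low level.

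Egr1 was the 1 immediate early gene that fell. Ier3, an early response gene of cell survival, was higher, with gene means of 1.01, 1.5, 1.16 and 1.05 at 2 h against -0.15, 0.04 and 0.06 untreated. Its difference was 1.23 (SE 0.17, adjusted p = 0.00124). Of 15 immediate early genes tested Egr1 was lower and Ier3 higher, with a median of 0.05. Ier2 was at -0.44 (adjusted p = 0.0538), Junb at -0.18 (adjusted p = 0.734) and Fosl1 at 0.14 (adjusted p = 0.874). Among 5 tested targets and feedback inhibitors of ERK, Hbegf was higher by 0.67 (SE 0.11, adjusted p = 0.00507). It encodes a ligand of the epidermal growth factor receptor, and its difference was 0.44 without untreated replicate 1 and 0.41 without centring (adjusted p = 0.14), while Ier3 kept its call without centring. Spry2, a feedback inhibitor, was at -0.41 (adjusted p = 0.208). None of 8 tested receptors and adaptors of the ERBB family was called by limma (3 at an unadjusted p under 0.05), where 2.81% of all genes were. The list's median was 0.07. The closest were the adaptor Shc1 at 0.38 (adjusted p = 0.0678) and the receptor inhibitor Errfi1 at 0.72 (adjusted p = 0.0728), while Egfr was at 0.13 (adjusted p = 0.709).

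Among 17 tested genes of the TGF-beta and BMP pathways the 1 gene called was Atoh8, a basic helix-loop-helix factor, which fell. It read -0.94, -1.08, -1.17 and -1.31 at 2 h and -0.22, -0.12 and -0.04 untreated, with a difference of -0.97 (SE 0.11, adjusted p = 0.000297). The list's median was 0.04.

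The remaining large falls were enzymes and secreted proteins outside the matrix. Lipoprotein lipase (Lpl) read -0.88, -0.75, -0.94 and -0.80 at 2 h and 0.19, 0.04 and 0.37 untreated. It was 2.06-fold lower (adjusted p = 0.0032), and its other probe, at -0.79, did not pass (adjusted p = 0.457). Naprt, an enzyme of NAD synthesis, differed by -0.96 (SE 0.16), the ecto-nucleotidase Entpd2 by -0.86 (SE 0.13), and Serpina1b, a protease inhibitor of the alpha-1 antitrypsin family, by -0.83 (SE 0.14). In Entpd2 the 2 h arrays were only slightly below 0, between -0.42 and -0.22, and the untreated arrays between 0.33 and 0.61. Baalc had a difference of -0.95 (SE 0.21, adjusted p = 0.0287), of which -0.27 was the 2 h mean. Its call was lost without 2 h replicate 1, 2 or 3 or untreated replicate 1 or 4 (adjusted p up to 0.299), and it was at -0.47 without untreated replicate 1.

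**Figure D2:**
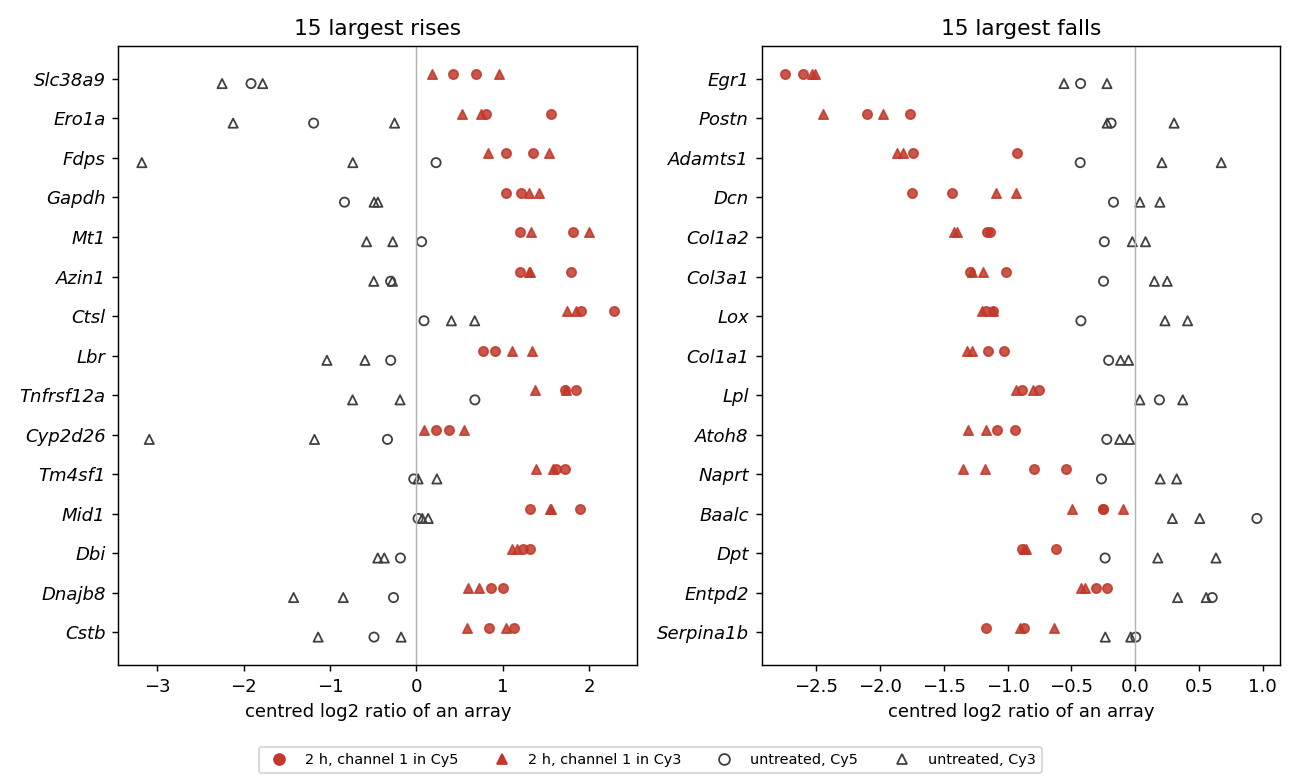
Centred log2 ratio (x axis) of every array for the 15 largest rises (left) and the 15 largest falls (right) among called genes whose groups do not overlap. Filled red symbols are the 4 arrays at 2 h, open symbols the 3 distinct untreated arrays, circles Cy5 and triangles Cy3. Egr1 and Postn lie furthest below 0, and the untreated values of Fdps and Cyp2d26 span 3.41 and 2.76 units.

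Among the largest rises were Gapdh, cathepsin L, metallothionein 1 and the surface protein Tm4sf1. The probe of Gapdh with the smallest p read 1.04, 1.21, 1.30 and 1.42 at 2 h and -0.83, -0.49 and -0.45 untreated. This glycolytic enzyme, often used as a reference gene, was 3.71-fold higher (log2 difference 1.89, SE 0.11, adjusted p = 2.48e-06). A second probe gave 1.46 (adjusted p = 0.000106). The third ran from -3.59 to 3.04 over the 2 h arrays and did not pass, and with it the gene mean did not pass either (1.25, adjusted p = 0.28).

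Cathepsin L (Ctsl), a lysosomal protease that transformed fibroblasts secrete, read 2.28, 1.91, 1.85 and 1.75 at 2 h and 0.09, 0.41 and 0.68 untreated. It had the highest mean ratio of the 30 genes, 1.95 ± 0.24 (SD, n = 4), and was 3.10-fold higher (SE 0.13, adjusted p = 3.58e-05). Metallothionein 1 (Mt1), which binds zinc and copper, read 1.82, 1.20, 1.33 and 2.00 against 0.06, -0.27 and -0.58. Its difference was 1.77 (SE 0.23, adjusted p = 0.00107). Tm4sf1, a surface protein of the transmembrane 4 superfamily, read 1.62, 1.72, 1.38 and 1.58 against -0.03, 0.24 and 0.02. The groups are far apart in all 3 genes, and each kept its call on every omission of an array. Of 22 lysosome genes tested 3 were higher, the others being Ctss and Cd63, and the list's median was 0.09. Cathepsin S (Ctss), at 0.83 (adjusted p = 0.0369), lost its call without each of 2 h replicates 1, 2 and 3 and each untreated array (up to 0.136), and Cd63, a tetraspanin at 0.49 (adjusted p = 0.0198), without 2 h replicate 2, 3 or 4 or untreated replicate 1 or 4 (up to 0.4). Cd63 was at 0.20 without untreated replicate 1, and its 2 h arrays overlapped the untreated arrays. Without centring Ctsl kept its call and Ctss and Cd63 did not. Cystatin B (Cstb), an inhibitor of cathepsins, was higher by 1.48 (SE 0.25, adjusted p = 0.00511).

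Tnfrsf12a, the receptor for the cytokine TWEAK, was at 1.85, 1.72, 1.37 and 1.74 at 2 h, while the untreated arrays ran from -0.74 to 0.68. It rose by 1.56 (SE 0.28, adjusted p = 0.00719). Its promoter window is shown because it was the 1 window among the 12 largest rises with a RefSeq entry that held the EGR element (GCGNGGGCG, both strands). The window is chr17:23677450-23677699 on the - strand, and capitals mark 2 overlapping copies, which begin 54 and 48 bases before the start.
Tnfrsf12a: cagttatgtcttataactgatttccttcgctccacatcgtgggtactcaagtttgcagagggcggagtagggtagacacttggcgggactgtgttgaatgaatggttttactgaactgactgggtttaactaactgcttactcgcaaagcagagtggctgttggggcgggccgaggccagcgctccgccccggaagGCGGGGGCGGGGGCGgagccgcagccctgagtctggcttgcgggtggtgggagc
None of the 8 largest falls with an entry held this element, and 5.33% of all genes with a window do.

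Azin1, which counters the antizyme that degrades ornithine decarboxylase, read 1.21, 1.79, 1.32 and 1.31 against -0.30, -0.28 and -0.49, while its second probe was at -0.07 (adjusted p = 0.936). Mid1, a microtubule-bound ubiquitin ligase, rose by 1.52 (SE 0.14, adjusted p = 8.81e-05) with 1 probe, and its other probes were at -0.04 and -1.17 without passing. For both genes the probes disagree, and the rise was measured with 1 of them. Dbi, the acyl-CoA binding protein, was at 1.32, 1.23, 1.11 and 1.17 against -0.19, -0.45 and -0.37. The lamin B receptor (Lbr) differed by 1.59 (SE 0.31, adjusted p = 0.0147) and lost its call without 2 h replicate 4 (adjusted p = 0.057). The cochaperone Dnajb8 differed by 1.5 (SE 0.27, adjusted p = 0.00792).

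In several of the named rises the untreated arrays were low or widely spread, and 4 of them are given here. Beside these, the untreated arrays were at -0.265, -1.42 and -0.85 for Dnajb8 and at -0.49, -1.14 and -0.18 for Cstb. Those of Tnfrsf12a, given above, spanned 1.42. Slc38a9, a lysosomal amino acid transporter, had the largest difference at 2.53 (SE 0.39, adjusted p = 0.00679). Its 2 h arrays were at 0.43, 0.69, 0.96 and 0.18, while the untreated arrays were at -1.92, -2.25 and -1.78. The 2 h mean did not pass against 0 (adjusted p = 0.273), and a second probe was at -0.06. Ero1a, an oxidase of disulphide formation, differed by 2.10 (SE 0.47, adjusted p = 0.0317) with a 2 h mean of 0.91, and lost its call without any 1 of the 2 h arrays or untreated replicate 3 (adjusted p up to 0.0931). Fdps, which makes farnesyl diphosphate for sterol synthesis, was at 1.35, 1.04, 0.83 and 1.54 at 2 h, but at 0.23, -0.74 and -3.18 untreated. Its difference of 2.05 (SE 0.46, adjusted p = 0.0287) lost the call without 2 h replicate 1, 2 or 4 (adjusted p up to 0.106) and was 3.15 without untreated replicate 1. The cytochrome P450 gene Cyp2d26 differed by 1.55 with a 2 h mean of 0.31, lost its call without any 1 of the 2 h arrays (adjusted p up to 0.116) or without centring (0.0653), and was at 2.61 without untreated replicate 1.

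For 97 of the 553 called probes the 2 h mean was under 0.25 of the difference or of the opposite sign, 47 of them higher and 50 lower. The largest among named genes, beside Slc38a9, were Rbl2, Podxl, Them7 and Tapt1. Rbl2, a pocket protein of the retinoblastoma family, had a difference of 2.58 from 2 h values of -0.19, 0.70 and 0.83 (replicate 1 missing) against untreated values of 0.36, -4.71 and -5.18. Podxl, a sialomucin, had 6.38, -1.41 and -3.78 untreated, with a difference of -2.42 that became 1.74 without untreated replicate 1. The Them7 and Tapt1 values were 2.32 and 2.28 with 2 h means of 0.15 and 0.07. Podxl lost its call without any 1 of the 2 h arrays, Them7 without 2 h replicate 1, 2 or 4 or untreated replicate 4, and Tapt1 without any 1 of the 7 arrays (adjusted p up to 0.131), and Tapt1 was at 1.48 without untreated replicate 1, while Rbl2 was at 5.82 without untreated replicate 1. The 2 h means of these 5 did not pass against 0 (adjusted p 0.273 to 0.967). Tested against 0, 1373 of 19606 probes were called at 2 h (7.00%), and 416 of the 553 probes were among them with the same sign.

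Of 16 glycolytic genes tested 4 were higher and none lower on gene means, Eno1b, Pkm, Pgam1 and Aldoa. Eno1b, an enolase, had 1.25, 1.28, 1.16 and 1.32 at 2 h against 0.04, -0.40 and -0.16, a difference of 1.37 (SE 0.13, adjusted p = 0.000222). Pyruvate kinase (Pkm) was at 1.51, 1.06, 1.02 and 1.35 against -0.27, -0.02 and -0.05, and phosphoglycerate mutase 1 (Pgam1) at 1.68, 1.68, 1.08 and 1.18 against 0.20, -0.38 and 0.19. Aldolase A (Aldoa) rose by 0.79 (SE 0.09, adjusted p = 0.000446). No omission of an array ended any of these 4 calls. Without centring Eno1b, Pkm and Pgam1 kept theirs and Aldoa did not (adjusted p = 0.056). The list's median was 0.21. Enolase and Gapdh belong to families of near-identical genes and pseudogenes, which cDNA probes can fail to separate.

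In sterol and fatty acid synthesis 2 of 15 genes tested were higher, Fdps and Hmgcs1, and the median was 0.33. Neither kept its call without centring on gene means (Fdps 1.80, adjusted p = 0.0573). Hmgcs1, which makes the HMG-CoA that feeds cholesterol synthesis, had gene means of 1.22, 1.57, 0.73 and 1.28 at 2 h against 0.05, 0.28 and 0.02. It rose by 1.10 (SE 0.20, adjusted p = 0.0104), or 0.84 without centring (adjusted p = 0.0509), and the desaturase Scd1 was at 0.40 (adjusted p = 0.314). The Hmgcs1 promoter window, chr13:119690101-119690350 on the + strand, is shown because it holds the sterol element core (CACCCCAC, both strands) at 136 bases before the start. Capitals also mark 3 CCAAT boxes on the other strand (ATTGG), at 237, 176 and 45.
Hmgcs1: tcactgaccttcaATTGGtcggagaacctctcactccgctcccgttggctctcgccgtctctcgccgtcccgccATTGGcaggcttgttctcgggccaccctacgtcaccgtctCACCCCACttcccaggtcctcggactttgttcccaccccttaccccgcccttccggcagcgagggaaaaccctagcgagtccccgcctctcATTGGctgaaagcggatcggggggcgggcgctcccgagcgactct
The core is in 2.98% of all genes with a window and in none of the 12 of the largest rises.

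Of 22 genes of redox and metal defence tested, 5 rose and none fell, with a median of 0.30. Beside Mt1 these were thioredoxin (Txn1), at 1.44, 1.36, 1.02 and 1.35 against 0.20, 0.61 and 0.56, peroxiredoxin 1 (Prdx1), and both ferritin chains. The heavy chain Fth1 rose by 0.59 (SE 0.08, adjusted p = 0.0019) and the light chain Ftl1 by 0.43 (SE 0.10, adjusted p = 0.0328). Ftl1 lost its call without 2 h replicate 2, 3 or 4 or untreated replicate 3 (adjusted p up to 0.117), and Prdx1, at 1.15 (adjusted p = 0.0222), without any array but untreated replicate 3 (up to 0.0804). Without centring Mt1 and Txn1 (0.64) kept their call, and Prdx1, Fth1 and Ftl1 lost it. The second metallothionein, Mt2, was at 0.67 (adjusted p = 0.535), and haem oxygenase 1 (Hmox1) at -0.03 (adjusted p = 0.966).

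Among actin and cytoskeletal genes 3 of 21 tested were higher, with a median of 0.35. Beta-actin (Actb) had gene means of 0.90, 1.13, 0.81 and 0.73 at 2 h against -0.06, -0.13 and -0.09, a difference of 0.98 (SE 0.11, adjusted p = 0.000326). Profilin 1 (Pfn1), which feeds actin monomers to growing filaments, was at 0.58, 0.74, 0.60 and 0.54 against -0.05, -0.30 and -0.48. The intermediate filament gene Vim rose by 0.48 (adjusted p = 0.0154) and lost its call without 2 h replicate 1 or 4 (adjusted p up to 0.0656). Without centring Actb kept its call, and Pfn1 (adjusted p = 0.0635) and Vim (0.288) did not. Gamma-actin (Actg1) was at -0.03 (adjusted p = 0.97), although actin cDNAs are close in sequence.

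In G1/S and DNA replication 4 of 25 tested rose, with a median of 0.40, and in G2/M 2 of 26 rose, with a median of 0.30. Pcna, the sliding clamp of DNA polymerase, had gene means of 1.68, 1.48, 1.30 and 1.58 at 2 h against -0.12, 0.40 and 0.36, and rose by 1.38 (SE 0.14, adjusted p = 0.000279). Among these calls only Pcna's held on every omission of an array and without centring. The helicase subunit Mcm4 was at 1.02 (adjusted p = 0.035), lost without 2 h replicate 2 or 4 or untreated replicate 3 or 4 (up to 0.138). The kinase Cdk4, at 0.56 (adjusted p = 0.0277), lost its call without any 1 of the 2 h arrays or untreated replicate 3 (up to 0.0942), and Uhrf1, which maintains DNA methylation, at 0.91 (adjusted p = 0.0353), without any array but untreated replicate 4 (up to 0.122). Cdk1, the mitotic kinase, at 0.58 (adjusted p = 0.0305), lost it without 2 h replicate 2 or 4 or untreated replicate 1 or 3 (up to 0.123), and was at 0.39 without untreated replicate 1. Its partner Cks1b, at 0.92, was at 0.46 without untreated replicate 1 (adjusted p = 0.167). Cyclin A2 (Ccna2) was at 0.75 (adjusted p = 0.0551). None of 16 growth arrest genes tested was called by limma (2 at an unadjusted p under 0.05), where 2.81% of all genes were. Gas1 was at -0.31 (adjusted p = 0.138).

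Chaperones of the cytosol and mitochondria had a median of 0.45, and 7 of 20 tested were higher. The prolyl isomerase Ppia was at 1.23, 1.20, 1.01 and 1.14 at 2 h against 0.09, 0.40 and 0.41, a difference of 0.90 (SE 0.10, adjusted p = 0.000326). Hspd1, the mitochondrial chaperonin, had gene means of 0.87, 0.98, 0.84 and 0.85 against -0.08, 0.11 and 0.54, and rose by 0.76 (adjusted p = 0.00507). Tcp1, a subunit of the cytosolic chaperonin, rose by 0.69 (adjusted p = 0.0032), and by 0.40 without untreated replicate 1. These 3 calls held on every omission of an array, but without centring only that of Ppia did among the 7, with Tcp1 at 0.43 (adjusted p = 0.0677) and Hspd1 at 0.50 (0.0724). On omissions of an array the calls of Hspa1b, Dnaja1, Cct2 and Cct8 were lost. In Cct2 and Cct8 the 2 h arrays overlapped the untreated arrays. Hspa1b (0.49), Cct2 (0.44) and Cct8 (0.44) each lost their call without 5 arrays, untreated replicate 1 among them, when they were at 0.27, 0.15 and -0.02. The other arrays were 2 h replicates 2, 3 and 4 and untreated replicate 4 for Hspa1b, 2 h replicates 1, 2 and 4 and untreated replicate 3 for Cct2, and 2 h replicates 1, 3 and 4 and untreated replicate 3 for Cct8. Dnaja1 (0.54) lost its call without 2 h replicate 2 or 4 or untreated replicate 4 (adjusted p up to 0.0973).

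In the endoplasmic reticulum list 2 of 19 tested were higher, with a median of 0.23. Calreticulin (Calr) was close to equal on the 2 h arrays, at 0.79, 0.78, 0.74 and 0.80 against 0.10, -0.10 and 0.30, and rose by 0.68 (SE 0.10, adjusted p = 0.0028). Hspa5, the luminal chaperone BiP, was at 0.91 (adjusted p = 0.018), which was lost without 2 h replicate 1 or 4 and without untreated replicate 1, when it was 0.45 (adjusted p = 0.203). Without centring both calls were lost (Calr 0.42, adjusted p = 0.103; Hspa5 0.65, adjusted p = 0.0855). The stress factors Atf4, at 0.06 (adjusted p = 0.924), and Ddit3, at -0.09 (adjusted p = 0.964), did not pass.

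Splicing factors had the largest number of calls of any list, 8 of 26 tested, all higher, with a median of 0.43 and 24 of 26 genes above 0. By share of genes tested, the cytosolic and mitochondrial chaperones (7 of 20) and the reference genes (3 of 7) had more. The serine-arginine proteins Srsf2 and Srsf3 changed most. Srsf2 was at 1.25, 1.61, 1.23 and 1.38 at 2 h against 0.03, -0.26 and -0.07, a difference of 1.44 (SE 0.21, adjusted p = 0.00186). Srsf3 had gene means of 1.01, 1.28, 1.04 and 1.16 against -0.15, -0.03 and 0.12. The lowest 2 h array was above the highest untreated one by 1.2 in Srsf2 and 0.89 in Srsf3. Srsf5 rose by 0.90 (SE 0.15), Hnrnpa2b1, which packages nascent transcripts, by 0.86 (SE 0.10; 0.53 without untreated replicate 1), and Ptbp1, a repressor of exons, by 0.76 (SE 0.14). Ptbp1 lost its call without 2 h replicate 4 (adjusted p = 0.0525), Snrpd3 (0.58) without 2 h replicate 1 or 4 (up to 0.0859), Hnrnpa1 (0.59) without 2 h replicate 2 or 4 or untreated replicate 1 (up to 0.0996), and Hnrnpd (0.62) without any array but untreated replicate 3 (up to 0.215). Without untreated replicate 1 Hnrnpa1 was at 0.37 and Hnrnpd at 0.34. Without centring Srsf2, Srsf3 and Hnrnpa2b1 kept their call and the other 5 did not (adjusted p 0.054 to 0.215).

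Of 22 translation factors tested 3 were higher, with a median of 0.30. The helicase Eif4a1 was at 0.79, 0.95, 0.79 and 0.96 against 0.18, -0.35 and -0.72, a difference of 1.05 (SE 0.16, adjusted p = 0.00225), and the poly(A)-binding protein Pabpc1 rose by 0.78 (SE 0.10, adjusted p = 0.000756). Eif5a, at 0.47 (adjusted p = 0.0192), lost its call without 2 h replicate 2, 3 or 4 (up to 0.0692). Of 50 cytosolic ribosomal protein genes 4 were higher, by 0.46 to 0.53, and the median was 0.12. Rpl26 lost its call without untreated replicate 1 (adjusted p = 0.143), when it was at 0.21 in place of 0.53, Rpl28 without any 1 of the 2 h arrays or untreated replicate 3 (up to 0.148), Rps15 without 2 h replicate 2, 3 or 4 or untreated replicate 4 (up to 0.123), and Rplp0 without any 1 of the 7 arrays (up to 0.129). In the proteasome 2 of 22 were higher, Psma6 by 0.72 and Psmd11 by 0.64, with a median of 0.36. The 2 h arrays of Psmd11 overlapped the untreated arrays. Psma6 lost its call without any array but untreated replicate 3 (up to 0.117), and Psmd11 without 2 h replicate 4 (0.0668), while it was 1.09 without untreated replicate 1. Without centring Eif4a1 kept its call, and the other translation factors, the 4 ribosomal protein genes and both proteasome genes did not (adjusted p 0.0528 to 0.447).

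Of 30 subunits of oxidative phosphorylation 5 were higher and none lower, and 26 lay above 0 with a median of 0.24. Sdhd, which anchors succinate dehydrogenase in the membrane, rose by 0.64 (SE 0.12, adjusted p = 0.00978) and kept its call on every omission of an array, but was at 0.38 without centring (adjusted p = 0.155). The ATP synthase subunits Atp5b (0.63) and Atp5pb (0.67) lost theirs without 2 h replicate 4, and also without untreated replicate 1 for Atp5b (up to 0.0642) or 2 h replicate 1 for Atp5pb (up to 0.0623). Ndufa1 of complex I (0.52) lost its call without 2 h replicate 1, 2 or 4 or untreated replicate 1 or 4 (up to 0.185), and Cox8a of complex IV (0.35) without any array but untreated replicate 3 (up to 0.178). Without untreated replicate 1 Atp5b was at 0.40, Ndufa1 at 0.285 and Cox8a at 0.21. None of the 5 calls held without centring (adjusted p 0.146 to 0.64).

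Of 7 reference genes tested 3 were called, Actb, Ppia and Rplp0, all higher, and 4 did not pass. All 7 lay above 0, and the median was 0.46 (0.21 without centring, when all genes are at -0.24), while Tbp was at 0.08 (adjusted p = 0.935). The untreated arrays were also more spread than those at 2 h, as given above. What part either has in the rises was not tested.

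None of 11 epithelial, 5 leukocyte and 9 endothelial and muscle marker genes tested was called by limma, with medians of -0.07, -0.02 and 0.03. With 2.81% of all genes called, no calls in lists this short say nothing about these cell types. At an unadjusted p under 0.05 in limma there were 1, 3 and 0 of them, against 1240 of all 9296 genes tested. Ratios hold no level, so whether such a gene is expressed at all cannot be read from them. Of 11 fibroblast markers tested 5 were lower at 2 h, Col1a1, Col1a2, Col3a1, Dcn and Postn, and 2 were higher, Vim and S100a4 (by 0.98, adjusted p = 0.00173). The receptors Pdgfra, at -0.39 (adjusted p = 0.858), and Pdgfrb, at -0.13 (adjusted p = 0.854), did not pass. Among 19 genes of interferon and acute phase responses the chemokine Ccl7 was higher by 0.88 (SE 0.22, adjusted p = 0.0485), lost without 2 h replicate 1, 2 or 4 or untreated replicate 3 or 4 (up to 0.181) or without centring (0.0905), and the median was -0.01.

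**Figure D3:**
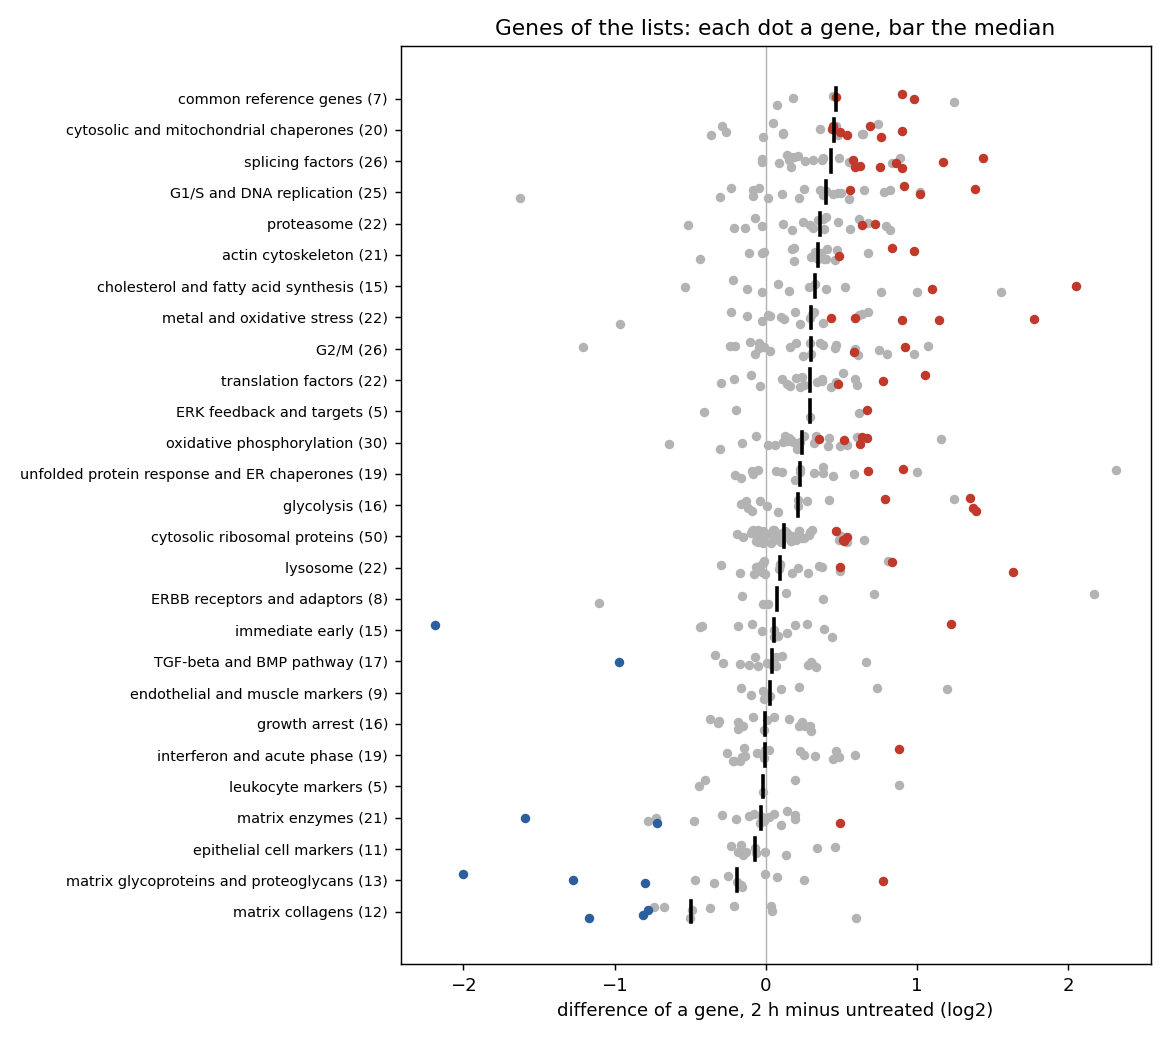
Difference between 2 h and untreated arrays (x axis, log2) of every tested gene in the 27 lists, with the number tested in brackets and a black bar at the list's median. Red and blue dots are genes called higher and lower in the fit on gene means. Collagens have the lowest median, -0.49, and reference genes the highest, 0.46. All values are relative to the array medians, and without centring the medians of 9 lists above 0 here, named in the text, fall below 0.

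A contrast of the 2 h arrays with the mean of the 1 h and 4 h arrays uses no untreated array. It called 40 of 18814 probes (0.213%), 32 higher and 8 lower at 2 h. Of these, 23 carried a gene symbol. Rgs2, which turns off G protein signalling, was at 0.69, 0.51, 0.50 and 0.72 at 2 h. It was between -1.02 and -0.58 on the 4 arrays at 1 h, and between -0.10 and 0.24 at 4 h. The 2 h arrays lay above all arrays of 1 h and 4 h, and the difference was 0.96 (SE 0.11, adjusted p = 0.0139). This level was not particular to 2 h. Rgs2 read 0.58, 0.502, 0.205 and -0.195 at 12 h, and 0.53, 0.64, 0.461 and 0.418 at 24 h. Against the untreated arrays Rgs2 was higher by 0.58 (adjusted p = 0.0415), and its second probe by 0.55 without passing (adjusted p = 0.223). The call against 1 h and 4 h was lost without 2 h replicate 2 or 4 or 4 h replicate 4 (adjusted p up to 0.11), and without centring (0.0579), when no probe was called in this contrast (1385 at an unadjusted p under 0.05 in limma).

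Further differences from the neighbouring times were less even across arrays. Rab15, a small GTPase, read 2.40 and 2.62 on the Cy5 arrays and -0.56 and -0.20 on the Cy3 arrays at 2 h, and Cpt1b, a carnitine palmitoyltransferase, read -2.37 and -2.43 against 0.51 and 0.71. Both split by dye. Lmbrd1, a lysosomal cobalamin protein, differed by -1.72, and its other probe was at 0.33 against untreated. Ptgr2 and Cpz differed by 0.85 and 0.69, while their 2 h means were -0.08 and -0.07 and their 4 h means -1.83 and -1.42. Rps26 differed by 0.72 and lost its call without any 1 of the 12 arrays. For Rab15, Ptgr2, Cpz, Lmbrd1 and Cpt1b the call was lost without any 1 of the 2 h arrays. Frmd8 lost it without 2 h replicate 2, 1 h replicate 3 or 4, or 4 h replicate 4. Frmd8 has no value on 2 h replicate 2, so leaving out 2 h replicate 1, 3 or 4 left too few values to fit. Whether its call depends on 1 of those arrays could not be tested. The largest adjusted p on the omissions fitted was 0.0712 for Frmd8, and for the other 5 it lay between 0.165 and 0.204.

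The named genes had different courses over the first day. Mean ratios of Postn stayed between -2.08 and -1.62 from 1 h to 24 h, so its 2 h value is 1 of 5 similar ones. Col1a2 was at -1.45 at 1 h, -1.28 at 2 h and -1.20 at 4 h, then at -0.19 at 12 h and 0.02 at 24 h. Col1a1, Col3a1 and Lox also had their lowest mean at 1 h. Among the rises, Ctsl, Mt1 and the Gapdh probe had their highest mean at 2 h, and Ctsl was back at 0.53 at 24 h. Tm4sf1 was at 1.63 at 4 h and at 0.22 at 24 h. These comparisons of times are descriptions, and Gapdh at 2 h was above the mean of its neighbours by 0.34 without passing (adjusted p = 0.115).

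**Figure D4:**
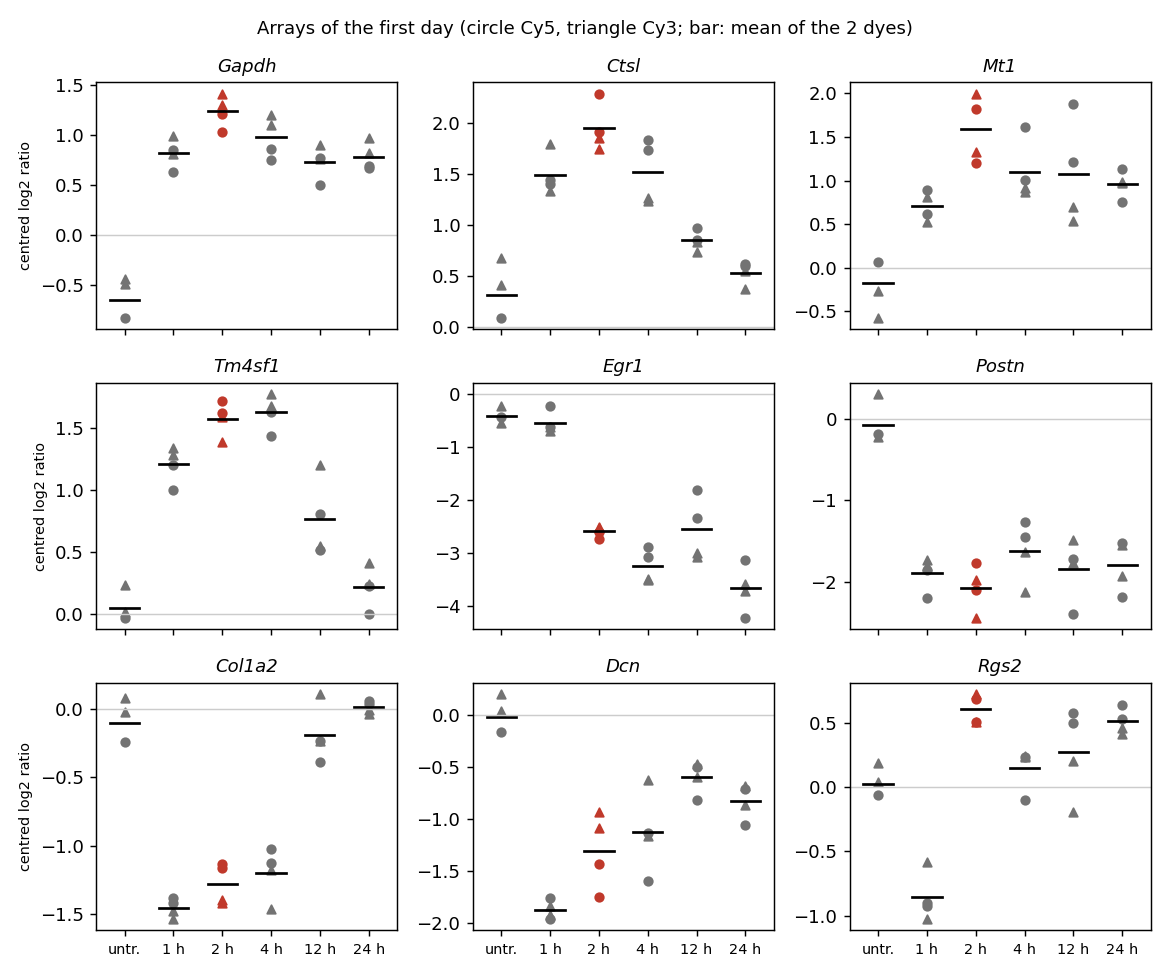
Centred log2 ratio (y axis) of each array for 9 genes in untreated cells and after 1, 2, 4, 12 and 24 h of tetracycline (x axis), circles Cy5, triangles Cy3, bars the mean of both dyes. The 2 h arrays are red: Egr1 is low from 2 h on, Postn from 1 h on, and Col1a2 from 1 h to 4 h only. Rgs2 is below 0 at 1 h and above it at 2 h.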

How the data were processed

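The authors deposited log2 ratios of 2-colour cDNA arrays, 1 column per sample. The software, background correction and normalization are not given in the sources used here. Values above 12 (21 to 67 per 2 h array), where a ceiling sits, were set to missing. Each array was centred on its median, and the sign of the Cy3 arrays was turned. Gene symbols came from the platform annotation: 14030 of 20355 probes had 1 symbol, 5 several and 6320 were not listed, and 13994 matched a current gene.

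Tests used limma 3.58.1 in R 4.3.3 with least squares and eBayes on 23 distinct arrays of 1, 2, 4, 12 and 24 h and untreated, with a mean and a dye effect for each group. A probe needed 3 values in each group compared and 1 per dye. The untreated mean is that of both dyes. P-values were adjusted by the Benjamini-Hochberg method over all probes, or over all genes when probes of a gene were averaged. A gene mean averages every probe with a value on that array, so the probes in it can differ between arrays. The tests were checked on simulated data with the same spread per probe in every group, so that check does not cover the wider spread of the untreated arrays.

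Named genes are the 15 largest rises and 15 largest falls among called probes whose 2 h arrays share a sign and do not overlap the untreated arrays, the 5 largest differences whose 2 h mean is under 0.25 of the difference, called list genes, and the 5 largest rises and 5 largest falls against 1 h and 4 h, which gave 3 falls with a symbol. The members and lists were chosen with earlier results of these data known. The arrays of 3, 5 and 7 days were left out of the fit. Alternatives were the dye effect, turning, the arrays fitted, centring, quantile normalization and scaling, the ceiling, filters, array weights, a replicate block, omission of each array and a test against 0. The omission of untreated replicate 1 used a common dye effect, and the other omissions a dye effect for each group.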

Additional observations from a re-analysis of the deposited data

Results flagged for a closer look

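In 6 of 123 groups of 4 arrays at 2 h, 1 array lay far from the other 3 by Dixon's criterion, and chance marks about 1 in 20. For Adamts1, whose probe is also its gene mean, replicate 2 was at -0.926, the highest. For Dpt replicate 1 was at -0.618, also the highest. Uhrf1 had 1.29 and Hspa1b 0.87 on replicate 2, both the highest. For Psmd11 replicate 3 was the lowest, at 0.554.

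A further 8 probes differed between times by limma's contrast of 2 h with the mean of 1 h and 4 h. Rab15 was higher by 2.2, Rgs2 by 0.958, Ptgr2 by 0.848, Rps26 by 0.72 and Cpz by 0.685. Frmd8 differed by -2.04, Lmbrd1 by -1.72 and Cpt1b by -0.956. The 2 h values of Frmd8 were -3.69, 1.09 and 0.44, with replicate 2 missing.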

How the results depend on the processing

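The 553 called probes became 1088 (343 higher, 745 lower) with the Cy3 arrays not turned, 0 with only the arrays compared in limma (2480 at an unadjusted p under 0.05), 94 with all 35 arrays, 1373 against 0 and 261 on gene means, and ran from 295 to 2592 over omissions of 1 array. They stayed within 1.5 times under the other settings, from 388 without a dye effect to 707 not centred. The 69 list genes became 24, 0 (153 unadjusted), 21 and 140 under the first 4 settings in that order, 32 not centred, and 40 to 107 over omissions. The 40 probes against 1 h and 4 h became 1 with a common or no dye effect, 3 not turned, 2 with only the arrays compared, 2 with all 35 arrays, 0 not centred (1385 unadjusted), 86 with values above 12 kept, 258 with array weights, 8 on gene means, and 0 to 39 over omissions.

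With the replicate block the counts were 427, 52 and 0 (1682 unadjusted). Deviations of 2 h arrays from the mean of their group and dye correlated with those of same-numbered arrays of the other groups at -0.0367 to 0.0418, so the numbers were not taken as pairs.

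Of 123 results for single genes, 48 changed sign with the Cy3 arrays not turned, 3 of them past the threshold (Rbl2, and Adamts1 as probe and gene mean). Probes then read Slc38a9 -0.0546, Fdps -1.09, Mt1 -0.32, Lbr -0.45, Tnfrsf12a -0.45, Cyp2d26 -0.91, Dbi -0.0451, Dnajb8 -0.30, Postn 0.25, Adamts1 0.69, Col1a2 0.27, Col3a1 0.27, Lox 0.38, Col1a1 0.17, Lpl 0.0334, Atoh8 0.18, Naprt 0.56, Dpt 0.38, Rbl2 -3.13 and Them7 -0.71, and Rps26 -0.00975 against 1 h and 4 h. Gene means were the same for single-probe genes, and otherwise Col1a1 0.0833, Col1a2 0.13, Dpt 0.29, Lox 0.31, Pfn1 -0.12, Aldoa -0.00771, Eno1b -0.15, Cdk4 -0.0669, Psmd11 -0.38, Sdhd -0.16, Rpl28 -0.0761, Rplp0 -0.038, Rps15 -0.19, Eif4a1 -0.36, Ftl1 -0.22, Srsf2 -0.0336, Srsf5 -0.29, Ccl7 -0.0351, Tubb6 -0.55, Kpna2 -0.20 and Lgals1 -0.0873. Over omissions Podxl ran from -3.01 to 1.74 and Cct8 from -0.0215 to 0.52, and each changed sign without untreated replicate 1. No other setting changed a sign. The call was lost by 123 results with only the arrays compared, 76 with all 35, 58 not centred, 29 with a common and 28 with no dye effect, 33 with the block, 20 with quantile normalization, 11 against 0 and 5 scaled. Of 115 results against untreated, 72 kept their call on every omission that could be fitted. Rbl2 is among the 72 with only 4 omissions fitted, because its value on 2 h replicate 1 is missing. The cause of these changes was not tested, except that fewer arrays leave fewer degrees of freedom.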

Other observations

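The genes here were chosen after their values were seen, so their counts say nothing of a family or a function. They lie outside the lists, apart from Tubb5, which is in the G2/M list, and S100a4, a fibroblast marker given above. Values are gene means. Of 11 alpha and beta tubulins tested, the subunits of microtubules, 5 were called, all higher, and 6 did not pass. Tuba1a read 0.58, 0.67, 0.59 and 0.83 at 2 h and -0.75, -0.04 and 0.00 untreated, a difference of 1.05 (SE 0.12, limma, adjusted p = 0.000452). Tuba1b rose by 0.97 (adjusted p = 0.000464), Tuba4a by 1.10 (adjusted p = 0.00177), Tubb6 by 1.20 (adjusted p = 0.00103) and Tubb2a by 0.53 (adjusted p = 0.0253). Tubb2a lost its call without 2 h replicate 1, 3 or 4 or untreated replicate 1 (adjusted p up to 0.178), and was 0.34 without the last. Tuba1c, at 1.63 (adjusted p = 0.0963), and Tubb5, at 0.30 (adjusted p = 0.242), did not pass, and Tubb4a was at -0.19. Tubulin cDNAs are close in sequence, so the probes of this family may share signal.

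The GTPase Ran, which drives nuclear transport, read 1.46, 1.64, 1.21 and 1.28 at 2 h and 0.03, 0.08 and 0.58 untreated, a rise of 1.22 (SE 0.16, adjusted p = 0.00103). The import receptor Kpna2 rose by 1.09 (adjusted p = 0.00026) and prothymosin alpha (Ptma) by 1.16 (adjusted p = 0.000215). The nucleolar protein Npm1 was at 0.49 (adjusted p = 0.0452), and at 0.05 without untreated replicate 1. Its call was lost without any array but untreated replicate 4 (adjusted p up to 0.898). Without centring the calls of Tubb2a, Npm1, Anxa5 and Lgals1 were lost (adjusted p 0.0635 to 0.375). S100a4, a calcium-binding protein of motile fibroblasts, rose by 0.98 (adjusted p = 0.00173), annexin Anxa5 by 0.82 (adjusted p = 0.00287) and the lectin Lgals1 by 0.76 (adjusted p = 0.00332). The 2 h arrays lay above all untreated arrays in S100a4, Anxa5 and Lgals1, and those of Npm1 did not.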
